A study of Homo sapiens with 6 samples.

Results

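The genes described here are the tumor necrosis factor gene TNF, both of its receptors and the proteins that act nearest to them: TNF (ligand), TNFRSF1A and TNFRSF1B (receptors), TRADD, TRAF1 and TRAF2 (adaptors), RIPK1, MAP3K5 and MAP3K7 (kinases) and TNIP1 (inhibitor). They were chosen by symbol in the deposited count table, which held all 10 among its 31831 genes, and all 10 passed the filter on low counts that left 17142 genes for testing. The RNA came from HK-2 cells, an immortalized line from the proximal tubule of a human kidney, after 72 h in 30 mM glucose, and was sequenced as RNA-seq libraries. Cells of the 3 HG-NC libraries carried an empty control vector, and cells of the 3 HG-OE libraries carried a lentiviral construct for overexpression of hnRNP-F, an RNA-binding protein that takes part in splicing. Both groups were kept in high glucose, so the comparison is between vectors within high glucose and holds no cells in normal glucose. The study calls the libraries of a group biological replicates, while its methods describe parallel wells for each group. The labels do not tie the libraries to separate cultures, and the p-values measure the spread between these libraries.

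TNF is a cytokine made as a membrane protein and released by cleavage. On TNFRSF1A it gathers TRADD, RIPK1 and TRAF2 at the receptor, from where ubiquitin chains recruit the kinase MAP3K7 (TAK1) and lead to NF-κB and MAP kinase signalling, while a later complex of the same adaptors can lead to cell death. TNFRSF1B lacks a death domain and binds TRAF2 and TRAF1 directly. In the diabetic kidney, TNF signalling is studied as a source of tubular inflammation, and tubular epithelium can itself make the cytokine.

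The libraries held 25507595 to 29444841 counted read pairs. HNRNPF, the gene to be overexpressed, stood at 311 ± 7.23 CPM (counts scaled to a common library total) in HG-NC and at 435 ± 14.9 in HG-OE (SD, n = 3), with every HG-OE library above every HG-NC library. These are counts on the human gene, and the gene ID that the methods give for the construct is not that of human HNRNPF in RefSeq, so they may not measure the construct itself. The kidney transcription factor PAX8 had 11953 to 18291 counts in each library, whereas the proximal tubule marker LRP2 was at 0 counts in all libraries but HG-OE 3, where it had 17, and AQP1 had 0 to 7. Where nothing was counted, up to 3 counts remain possible by counting error alone. The leukocyte gene PTPRC had 1 or 2 counts per library, TYROBP 0 or 1 and CD3E 0 to 3. HG-OE 3 stood apart from the other libraries: it held 4359 counts of the liver gene ALB against 0 to 78 elsewhere, 384 of CDH1 against 2 to 10, and 428 of the myeloid gene CD14 against 78 to 141. In the study's own summary of reads, the third HG-OE library also had the lowest share of uniquely mapped reads among the high-glucose libraries. Summed over 12 liver markers the libraries held 266 to 277 CPM in HG-NC and 462 to 781 CPM in HG-OE, and over 9 myeloid markers 14.5 to 15.3 and 11.4 to 21.6 CPM. Over 15 renal epithelial markers the sums were 1737 to 1828 CPM in HG-NC and 1980 to 2543 CPM in HG-OE, highest in HG-OE 3. The part of these markers in the results was not tested. Without HG-OE 3, each of the 10 genes kept its direction and its side of the threshold.

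Start regions are shown for the ligand, its main receptor, the kinase with the largest difference among the 10 and the inhibitor. Both directions of change occur among these genes, as among the others, and 2 of the starts shown hold a searched motif. RefSeq promoters on GRCh38.p14 (250 bases before to 50 bases after a start) were found for 9 of the 10 genes, with 15 starts in all, and TRADD had no entry. The 250 bases before the start are shown 5′ to 3′ on the strand of the gene, with matches to the searched motifs in capitals. The regions are chr6:31575315-31575564 on the plus strand for TNF, chr12:6342077-6342326 on the minus strand for TNFRSF1A, chr6:136793092-136793341 on the minus strand for MAP3K5 and chr5:151081035-151081284 on the minus strand for TNIP1.
TNF: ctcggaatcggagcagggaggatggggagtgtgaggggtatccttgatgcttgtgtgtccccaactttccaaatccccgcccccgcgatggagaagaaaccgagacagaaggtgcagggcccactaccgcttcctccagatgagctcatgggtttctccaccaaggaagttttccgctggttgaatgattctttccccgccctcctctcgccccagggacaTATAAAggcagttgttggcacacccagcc
TNFRSF1A: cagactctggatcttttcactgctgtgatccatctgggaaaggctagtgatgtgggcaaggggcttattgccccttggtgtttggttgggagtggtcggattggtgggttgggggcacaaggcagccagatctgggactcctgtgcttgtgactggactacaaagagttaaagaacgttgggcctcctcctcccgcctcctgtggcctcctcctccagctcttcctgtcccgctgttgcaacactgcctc
MAP3K5: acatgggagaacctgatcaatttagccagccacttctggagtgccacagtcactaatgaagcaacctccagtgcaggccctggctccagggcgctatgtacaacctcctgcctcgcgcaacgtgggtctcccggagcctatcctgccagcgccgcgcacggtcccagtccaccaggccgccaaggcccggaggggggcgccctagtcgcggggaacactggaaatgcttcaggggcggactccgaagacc
TNIP1: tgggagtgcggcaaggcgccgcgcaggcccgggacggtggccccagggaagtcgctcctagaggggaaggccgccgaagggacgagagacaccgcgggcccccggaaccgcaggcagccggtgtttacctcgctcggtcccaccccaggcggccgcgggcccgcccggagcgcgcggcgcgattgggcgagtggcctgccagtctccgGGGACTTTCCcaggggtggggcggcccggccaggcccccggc
The motifs searched on both strands were the κB consensus of NF-κB, the TATA box TATAAA, the AP-1 site TGANTCA and the cyclic AMP response element TGACGTCA. Only exact matches within these regions were marked. The lack of a mark, in TNF as elsewhere, therefore does not show that a gene has no variant site or no site farther away. In TNF the capitals mark a TATA box whose first base lies at −29 from the start. In TNIP1 they mark GGGACTTTCC from −42, the only match to the κB consensus in the 15 start regions. RIPK1 had a TATA box from −30 at 1 of its 3 starts, and the other start regions, those of TNFRSF1A and MAP3K5 among them, held none of these letters. Among 35116 promoters of this length, 5.91% held the κB consensus, 11.5% TATAAA, 7.71% TGANTCA and 1.85% TGACGTCA. GC content was 57.7% for TNF, 55.7% for TNFRSF1A, 63.3% for MAP3K5 and 77.0% for TNIP1 at the starts shown, with a median of 58.7% over all promoters. MAP3K5 and TNIP1 each have a further start in the table, with GC above and below that median (52.3% for TNIP1) and no match to a searched motif. At the other end of the transcript, TNF differed from the rest of the genes: the nonamer TTATTTATT, the core of AU-rich elements through which proteins such as ZFP36 shorten the life of cytokine mRNAs, occurred 5 times in the 3′ UTR of the canonical TNF transcript of GENCODE 44 and 0 times in those of the other 9 genes. Of 13594 protein-coding genes tested, 9.53% held at least 1 such nonamer, and 55 genes (0.405%) held 4 or more. The pentamer ATTTA within the nonamer was not particular to TNF. It occurred 9 times in the 3′ UTR of TNF (799 bases) and 11 times in that of MAP3K7 (2922 bases). RIPK1 held 3, MAP3K5 and TRAF1 1 each, and the other genes 0.

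The comparison asked at which level of the pathway transcripts differed between HG-OE and HG-NC: ligand, receptor, adaptor or kinase. TNF fell, and so did the adaptor TRAF1 and the kinase MAP3K5, while the main receptor TNFRSF1A rose together with TRADD, RIPK1 and TNIP1. TNFRSF1B, TRAF2 and MAP3K7 did not pass the test. With edgeR's quasi-likelihood test and Benjamini-Hochberg adjustment over all 17142 genes, the threshold for a call was an adjusted p under 0.05. By this rule 3 of the 10 genes were lower in HG-OE, against 25.9% of all genes tested, and 4 were higher, against 25.9%. Because 51.8% of all genes passed in either direction, 7 calls among 10 genes lie near that background. A fold change of at least 2 was reached by TNF and MAP3K5, against 5.82% of all genes in either direction. Both fell, against 2.13% of all genes, and 0 of the 10 rose by that much, against 3.69%. Both stand, with BIRC3, under the KEGG TNF signaling pathway in a supplementary enrichment table that the study made from genes called in these same libraries, so that their fall is no independent evidence of a direction of the pathway. The groups did not overlap for 8 of the 10 genes, 4 of them lower and 4 higher in HG-OE, against 59.0% of all genes (29.4% lower and 29.6% higher). The median log2 fold change of the 10 was −0.09, beside 0.01 over all genes.

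**Figure D1:**
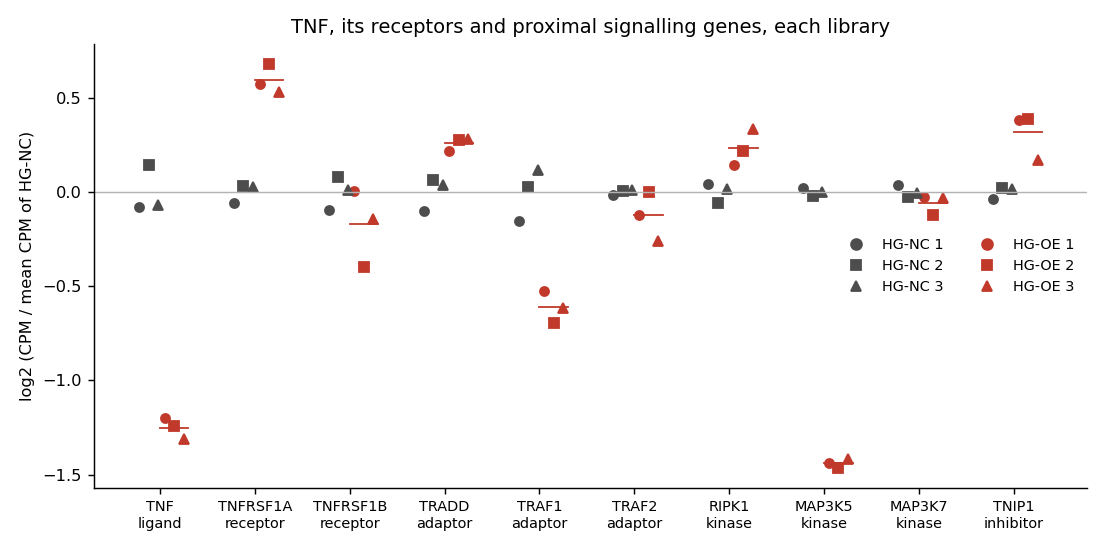
Level of each gene in each library as log2 of its CPM over the mean CPM of HG-NC (vertical axis), with HG-NC in grey and HG-OE in red. Each replicate number has a marker shape, which does not pair the libraries. Red lines lie at log2 of the mean CPM of HG-OE over that of HG-NC. TNF and MAP3K5 lie more than 1 log2 unit below HG-NC in all 3 HG-OE libraries, and TNFRSF1A lies above HG-NC in all 3.

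The ligand came first. TNF (ENSG00000232810.4, chr6:31575565-31578336, plus strand of GRCh38) was counted at 21.0, 24.5 and 21.1 CPM in HG-NC 1, 2 and 3 and at 9.65, 9.38 and 8.95 CPM in HG-OE 1, 2 and 3. All HG-OE libraries were low and close to one another, and the lowest HG-NC library was above the highest of them. These CPM rest on 533 to 663 read pairs per library in HG-NC and 262 to 280 in HG-OE. The group means were 22.2 ± 2.00 and 9.32 ± 0.355 CPM (SD, n = 3), which left 42.0% of the HG-NC level. The log2 fold change was −1.25 (SE 0.0870, 95% interval −1.44 to −1.06), with an adjusted p of 8.01e-08 by edgeR. Of all genes tested, 1.18% had a lower log2 fold change. In bulk libraries, fewer cells that make a transcript and less of it per cell cannot be told apart.

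The genes on either side of TNF moved less than TNF. It lies in the class III region of the major histocompatibility complex, between the lymphotoxin genes LTA and LTB, which are ligands of the same superfamily. LTA was barely expressed, with means of 0.978 ± 0.212 CPM for HG-NC and 1.15 ± 0.222 CPM for HG-OE, and its groups overlapped (log2 fold change 0.22, adjusted p 0.528 by edgeR). LTB was counted at 29.8, 31.3 and 27.9 CPM in HG-NC and at 21.5, 19.2 and 18.0 CPM in HG-OE. It fell by 0.60 on the log2 scale (adjusted p 1.64e-05 by edgeR), a smaller difference than that of TNF. Over the 296 other genes tested within 10 Mb of TNF the median log2 fold change was 0.10, and over the 95 within 1 Mb it was 0.18. Of these 95, 0 had a lower log2 fold change than TNF and 3 had a larger one in size, all of them higher in HG-OE.

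Of the receptors, the transcript of the broadly expressed, death-domain receptor was higher and that of the other was not called. TNFRSF1A (ENSG00000067182.8, chr12:6328757-6342114, minus strand) was at 110, 117 and 117 CPM in HG-NC and at 171, 183 and 165 CPM in HG-OE. The groups were well separated, HG-OE 2 being the highest library. The means were 115 ± 3.94 and 173 ± 9.25 CPM (SD, n = 3), and TNFRSF1A rose 1.51-fold (log2 fold change 0.59, SE 0.0466, 95% interval 0.49 to 0.69, adjusted p 2.28e-07 by edgeR). LTBR, the lymphotoxin receptor gene 0.0329 Mb away, averaged 228 CPM in HG-NC (SD 4.199) and 240 in HG-OE (SD 15.0) and was not called (log2 fold change 0.07, adjusted p 0.203 by edgeR). The 53 genes tested within 1 Mb of TNFRSF1A had a median of 0.21.

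TNFRSF1B (ENSG00000028137.19, chr1:12166991-12209228, plus strand), the receptor most used by immune and endothelial cells and the one that membrane-bound TNF activates best, was at 8.77, 9.90 and 9.45 CPM in HG-NC and at 9.41, 7.11 and 8.47 CPM in HG-OE. HG-OE 1 lay within the range of HG-NC and HG-OE 2 was the lowest of the 6. Its log2 fold change was −0.17 (SE 0.117, adjusted p 0.241 by edgeR), and the 95% interval of −0.42 to 0.08 leaves room for a fall of that size as well as for none. With 207 to 273 counts in a library, this receptor had the widest interval of the 10 genes.

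**Figure D2:**
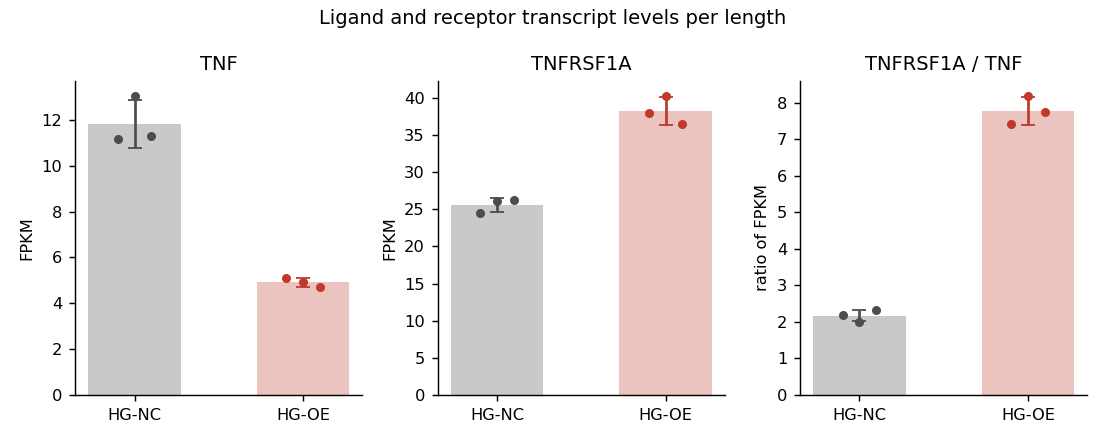
FPKM of TNF, FPKM of TNFRSF1A and the ratio of TNFRSF1A to TNF in FPKM, with bars at the group mean, error bars of 1 SD (n = 3) and a point for each library. TNF drops from 11.8 to 4.92 FPKM while TNFRSF1A is 25.6 in HG-NC and 38.2 in HG-OE, so that the ratio moves from 2.17 to 7.77.

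Since ligand and receptor moved in opposite directions, their balance within a library was computed on both scales. On the per-length scale of the deposited FPKM, TNF was 11.8 ± 1.05 in HG-NC and 4.92 ± 0.200 in HG-OE, and TNFRSF1A was 25.6 ± 0.942 and 38.2 ± 1.89. TNFRSF1A transcripts exceeded those of TNF by a factor of 2.20, 2.00 and 2.32 in HG-NC 1, 2 and 3 and by a factor of 7.40, 8.18 and 7.74 in HG-OE 1, 2 and 3. The ratio of TNF to TNFRSF1A was thus 3.58-fold higher in HG-NC. As a difference of log2 CPM, TNF minus TNFRSF1A changed by −1.83 (95% interval −2.04 to −1.63), with an exact two-sided permutation p of 0.1, the smallest that 3 libraries against 3 allow. The ratio of TNFRSF1A to TNFRSF1B was 11.5 ± 0.350 in HG-NC and 19.9 ± 3.81 in HG-OE on the FPKM scale, and its larger spread in HG-OE came with the spread of TNFRSF1B.

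The adaptors differed among themselves. TRADD (ENSG00000102871.16, chr16:67154185-67159909, minus strand), the death-domain adaptor that binds TNFRSF1A, was at 15.8, 17.8 and 17.4 CPM in HG-NC and at 19.7, 20.6 and 20.7 CPM in HG-OE. Every HG-OE library lay above HG-NC, though by a small margin, and TRADD rose by 0.26 on the log2 scale (SE 0.0731, adjusted p 0.00922 by edgeR). Over the 67 genes within 1 Mb of it the median was 0.15 on the log2 scale, and with that median removed TRADD stood at 0.10 (adjusted p 0.267). Here and below, such a median was subtracted as a fixed value. The adjusted p that follows keeps the SE of the gene and leaves out the uncertainty of the median.

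TRAF1 (ENSG00000056558.11, chr9:120902393-120929173, minus strand), an adaptor that NF-κB itself induces and that binds TRAF2 at TNFRSF1B, was at 10.8, 12.2 and 12.99 CPM in HG-NC and at 8.34, 7.42 and 7.82 CPM in HG-OE. The HG-OE libraries were low without overlap. With means of 12.0 ± 1.12 and 7.86 ± 0.462 CPM, TRAF1 fell by 0.61 on the log2 scale (SE 0.103, 95% interval −0.83 to −0.39, adjusted p 0.000220 by edgeR). Its neighbours went the other way, the 188 genes within 10 Mb having a median of 0.15.

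TRAF2 (ENSG00000127191.18, chr9:136881912-136926607, plus strand), the adaptor common to both receptors that brings in the cIAP ubiquitin ligases, was at 64.1, 65.1 and 65.3 CPM in HG-NC and at 59.6, 64.7 and 54.2 CPM in HG-OE. HG-OE 2 lay among the HG-NC libraries and HG-OE 3 was the lowest. The log2 fold change of −0.12 (SE 0.0589, 95% interval −0.25 to 0.0026) did not pass (adjusted p 0.0940 by edgeR). This call depended on a library and on the region: without HG-OE 2 the log2 fold change of TRAF2 was −0.19 (adjusted p 0.0151 by edgeR). Over the 205 genes within 10 Mb the median was 0.17. Relative to it TRAF2 was at −0.29 (adjusted p 0.00112), and relative to the 1 Mb median at −0.30 (adjusted p 0.000835). The ratio of TRAF2 to TRAF1 in FPKM was 6.63 ± 0.573 in HG-NC and 9.26 ± 1.20 in HG-OE.

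Of the kinases, MAP3K5 showed the largest difference among the 10 genes. MAP3K5 (ENSG00000197442.10, chr6:136557046-136793097, minus strand), also known as ASK1, is a stress-activated kinase that TRAF2 engages after TNF binding and that leads to JNK and p38. It was counted at 42.3, 41.2 and 41.7 CPM in HG-NC and at 15.4, 15.1 and 15.6 CPM in HG-OE. Both groups were tight and lay far apart. The means were 41.7 ± 0.581 and 15.4 ± 0.245 CPM (SD, n = 3), 36.9% of the HG-NC level remained, and the log2 fold change was −1.44 (SE 0.0563, 95% interval −1.56 to −1.32, adjusted p 5.71e-10 by edgeR). The antisense gene MAP3K5-AS1, which shares 19133 bases with it, had 184 counts over all libraries against 4702 for MAP3K5.

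Most neighbours of MAP3K5 were low as well, whereas 33 of the 95 genes within 1 Mb of TNF, LTB among them, were below 0. Of the 82 genes tested within 10 Mb of MAP3K5, 79.3% had a log2 fold change below 0 and the median was −0.33. Within 1 Mb, 9 of 11 genes were below 0, with a median of −0.52. The lowest of the 11 were PDE7B at −2.09, SLC35D3 at −1.86 and the interferon-γ receptor gene IFNGR1 at −0.80. MAP3K5-AS1, also among the 11, was at 0.0047. With the 10 Mb median removed MAP3K5 was at −1.11, and with the 1 Mb median removed at −0.92. The part of the region in the fall of MAP3K5 was not tested beyond these values.

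**Figure D3:**
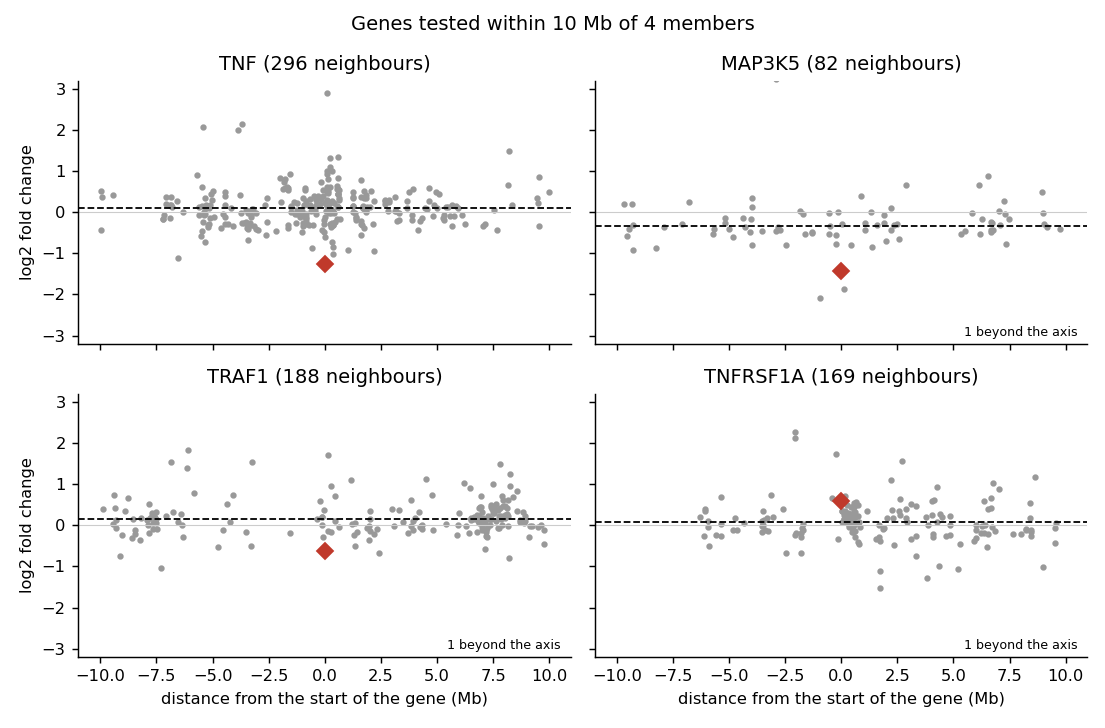
Log2 fold change of all genes tested within 10 Mb of TNF, MAP3K5, TRAF1 and TNFRSF1A (grey points, horizontal axis in Mb from the start of the gene), the gene itself (red diamond) and the median of its neighbours (dashed line). The neighbours of TNF centre on 0.10 and those of MAP3K5 on −0.33, and 1 gene lies beyond the axis in each panel but that of TNF.

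RIPK1 (ENSG00000137275.16, chr6:3063824-3115187, plus strand), the kinase whose ubiquitination steers the receptor complex between survival and death, was at 26.1, 24.3 and 25.6 CPM in HG-NC and at 27.9, 29.5 and 31.9 CPM in HG-OE. HG-OE was higher without overlap and HG-OE 3 was the highest library. RIPK1 rose by 0.23 on the log2 scale (SE 0.0647, adjusted p 0.00826 by edgeR), but the call did not hold throughout. It was lost without HG-NC 2 (0.20, adjusted p 0.0536), in limma on log2(FPKM + 1) (0.14, adjusted p 0.0607) and with the median of the 72 neighbours within 10 Mb removed (0.10, adjusted p 0.247).

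MAP3K7 (ENSG00000135341.18, chr6:90513573-90587086, minus strand), the kinase TAK1 that activates the IκB kinases, was at 65.7, 63.0 and 63.9 CPM in HG-NC and at 62.9, 59.0 and 62.9 CPM in HG-OE. The HG-OE libraries all lay below HG-NC, HG-OE 1 and 3 by a narrow margin. The log2 fold change of −0.06 (95% interval −0.16 to 0.04) did not pass (adjusted p 0.306 by edgeR).

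TNIP1 (ENSG00000145901.16, chr5:151029945-151093577, minus strand), a ubiquitin-binding partner of A20 that restrains NF-κB, was the most abundant of the 10 at 336, 349 and 348 CPM in HG-NC and at 448, 450 and 387 CPM in HG-OE. HG-OE was higher without overlap, HG-OE 3 less so than the other two. TNIP1 rose by 0.32 on the log2 scale (SE 0.0527, adjusted p 0.000199 by edgeR). Its neighbours were higher too: over the 109 genes within 10 Mb the median was 0.37 on the log2 scale, and 17.4% of them were below 0. With that median removed TNIP1 stood at −0.05 (adjusted p 0.476), and with the 1 Mb median of 0.56 removed at −0.24 (adjusted p 0.00192), so that the direction of its difference turned.

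**Figure D4:**
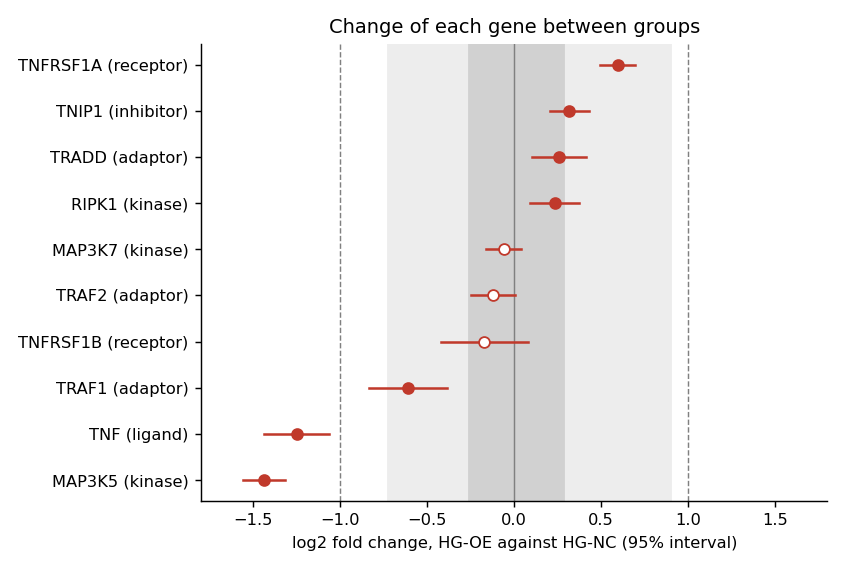
Log2 fold change of each gene, HG-OE against HG-NC, with its 95% interval from the edgeR fit, filled where the adjusted p is under 0.05. Grey bands run between the quartiles of all genes (darker, −0.26 to 0.29) and from their 5% to their 95% quantile (lighter, −0.73 to 0.90), and only TNF and MAP3K5 lie outside the lighter band.

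Set against the other genes in the same libraries, the fall of TNF was larger than that of every receptor and adaptor. TNF minus TNFRSF1B, in log2 CPM, changed by −1.06 (95% interval −1.40 to −0.73), TNF minus TRAF1 by −0.64 (−0.93 to −0.35) and TNF minus TRAF2 by −1.11 (−1.37 to −0.86). For TRADD, RIPK1, MAP3K7 and TNIP1 the change lay between −1.55 and −1.18, again without overlap of the groups. TNF minus MAP3K5 changed by 0.19 (−0.06 to 0.45) with overlapping groups (exact two-sided permutation p = 0.2), so the falls of these genes were not told apart.

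On the per-length scale the order of the 10 genes differed between groups: TRADD went from rank 7 to 4 and RIPK1 from 10 to 8, TNF from 4 to 6, TRAF1 from 8 to 10 and MAP3K5 from 6 to 7. In HG-NC the FPKM ran from TNIP1 (53.1 ± 1.26) and TNFRSF1A (25.6 ± 0.942) through TRAF2 (15.8 ± 0.207), TNF (11.8 ± 1.05), MAP3K7 (7.92 ± 0.165), MAP3K5 (7.09 ± 0.0985) and TRADD (7.003 ± 0.430) to TRAF1 (2.40 ± 0.233), TNFRSF1B (2.22 ± 0.137) and RIPK1 (1.86 ± 0.0700). MAP3K5 and TRADD overlapped there, as did TRAF1 and TNFRSF1B. In HG-OE, TRADD (8.28 ± 0.172) and MAP3K7 (7.52 ± 0.310) stood above TNF (4.92 ± 0.200), and MAP3K5 (2.59 ± 0.0529), RIPK1 (2.16 ± 0.143), TNFRSF1B (1.95 ± 0.281) and TRAF1 (1.56 ± 0.1002) followed. RIPK1 and TNFRSF1B overlapped in that group. Among 13692 protein-coding genes, the FPKM of TNF moved from the 74.9th percentile in HG-NC to the 54.5th in HG-OE, and that of MAP3K5 from the 63.0th to the 38.5th.

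Likeness to TNF was described by Pearson's r of log2 CPM over the 6 libraries among the 11561 protein-coding genes above a minimum mean count. The 5 highest were UBE2G1 (r = 0.999), SEPSECS, STX18, ZNF710 and LIAS (r = 0.998 each). The libraries form 2 groups, and 24.2% of the genes had an r over 0.9, so that a high r does not set a gene apart here. MAP3K5 ranked 252nd with r = 0.989 and TRAF1 1452nd with r = 0.959. With the group means removed, r with TNF over the 6 libraries was −0.707 for MAP3K5 and 0.276 for TRAF1.

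Beyond these 10, 112 genes of TNF receptor signalling were grouped in 9 lists, of which 93 were tested. Of them 40 were lower in HG-OE (43.0%, against 25.9% of all genes tested) and 24 were higher (25.8%, against 25.9%), with a median log2 fold change of −0.07. The lists were chosen with earlier results of these data known, so these shares are no independent evidence of a direction of the pathway. With the 10 Mb neighbour median removed, 30 of the 93 were lower and 15 higher. Over all genes that setting called 7807 in either direction, in place of 8887. The main counts of each list below stand beside the same 25.9% of all genes in each direction. That share does not apply to counts from the alternatives, where the number of genes called over all genes differed too (7065 in limma without a filter). Of the 11 superfamily ligands tested, 3 fell and 3 rose. TNFSF14 (LIGHT) rose by 2.62 and TNFSF15 by 1.41 on the log2 scale, both from low levels of 0.275 ± 0.132 and 1.24 ± 0.510 CPM in HG-NC. TNFSF10 (TRAIL), the most counted ligand, went from 146 ± 2.11 to 181 ± 0.635 CPM (log2 fold change 0.32, adjusted p 8.03e-06 by edgeR). The fall of TNF was therefore not shared by all ligands of its family.

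Of 17 other receptors of the superfamily, 8 fell and 3 rose. TNFRSF8 (CD30) fell by 1.96 and TNFRSF11A (RANK) by 1.24 on the log2 scale, and both were low, at 3.81 ± 1.09 and 2.67 ± 0.526 CPM in HG-NC. NGFR rose by 0.88, and TNFRSF12A (the TWEAK receptor), the most counted at 259 ± 4.14 CPM, fell by 0.26. Of the other TRAF genes, TRAF4 fell by 0.40, TRAF3 and TRAF5 fell too, and TRAF6 was not called. TRAF7 rose by 0.19 (adjusted p 0.0137 by edgeR), a call that was lost without HG-NC 1 (adjusted p 0.0623), without HG-OE 2 (0.0544) and in limma on log2(FPKM + 1) (0.0505), and its sign turned with the 10 Mb neighbour median removed.

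The ubiquitin ligases that TRAF2 brings to the receptor were lower. BIRC3 (cIAP2), itself an NF-κB target, was at 177, 174 and 168 CPM in HG-NC and at 89.9, 74.8 and 70.8 CPM in HG-OE. It fell by 1.14 on the log2 scale (SE 0.0688, adjusted p 2.22e-08 by edgeR). The median over the 11 genes within 1 Mb of BIRC3 was 0.07. That window was chosen after the data were seen and is narrower than the 10 Mb used for the genes below. BIRC2 (cIAP1) fell by 0.55, the deubiquitinases CYLD and TNFAIP3 (A20) by 0.39 and 0.43, whereas SHARPIN of the linear ubiquitin ligase rose by 0.65. TNFAIP3 lies 1.07 Mb from MAP3K5, among the neighbours of that gene within 10 Mb, whose median was −0.33. In all, 8 of 15 genes of this machinery fell and 5 rose, and with the 10 Mb neighbour median removed 5 were lower and 2 higher. UBE2D3, the most counted, fell by 0.34, and with that median removed it was at −0.068 (adjusted p 0.148).

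Among the partners of MAP3K7 and the IκB kinases, 5 of 10 fell and 2 rose, and 3 were lower with the 10 Mb neighbour median removed. TAB2, the subunit that binds MAP3K7 to ubiquitin chains, was at 201, 203 and 206 CPM in HG-NC and at 120, 115 and 106 CPM in HG-OE, a fall of 0.84 (adjusted p 7.92e-09 by edgeR), in a region whose 84 genes within 10 Mb had a median of −0.39. IKBKE, a non-canonical IκB kinase, rose by 1.29, from 4.34 ± 0.663 to 10.6 ± 0.430 CPM. Of the stress kinases next to MAP3K5, 5 of 12 fell and 3 rose, and 3 were lower without HG-OE 1 or with the 10 Mb neighbour median removed. MAP3K8 fell by 0.53, MAPK9 (JNK2) rose by 0.71 beside neighbours at a median of 0.48, and TXN (thioredoxin), which binds and inhibits MAP3K5, fell by 0.11 (adjusted p 0.0314 by edgeR), a call that was lost when any library but HG-OE 3 was left out (adjusted p 0.0541 to 0.142).

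In the death arm, 5 of 9 genes fell and 2 rose. CFLAR, the inhibitor of caspase-8 that NF-κB induces and the most counted gene of this list, fell by 0.65, and MLKL rose by 0.49. Among the proteases and partners that shed TNF and its receptors, 3 of 8 genes fell and 2 rose. The higher count was 1 without HG-NC 1, HG-NC 3 or HG-OE 1 and in limma, and 0 with the 10 Mb neighbour median removed. ADAM17, the enzyme that cleaves TNF from the membrane, was at 94.6, 84.8 and 84.8 CPM in HG-NC and at 64.2, 62.6 and 60.0 CPM in HG-OE, a fall of 0.50 (adjusted p 3.26e-06 by edgeR). RHBDF1, a cofactor of ADAM17, rose by 0.36 (adjusted p 0.0126 by edgeR), and its call was lost in each of those settings. With the 10 Mb neighbour median removed, the other higher call of this list was lost too. ADAM10, the most counted, fell by 0.13 (adjusted p 0.0235 by edgeR), a call that was lost without HG-NC 1 (0.125), HG-NC 3 (0.0666) or HG-OE 2 (0.0996), in limma and with the 10 Mb neighbour median removed (0.0617). Of the 6 receptor modulators 0 fell and 3 rose, MADD by 0.25 and GRN (progranulin), the most counted, by 0.19 among them. The higher count was 1 with the 10 Mb neighbour median removed or in limma without a filter, and 1 gene was called lower without HG-OE 3.

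**Figure D5:**
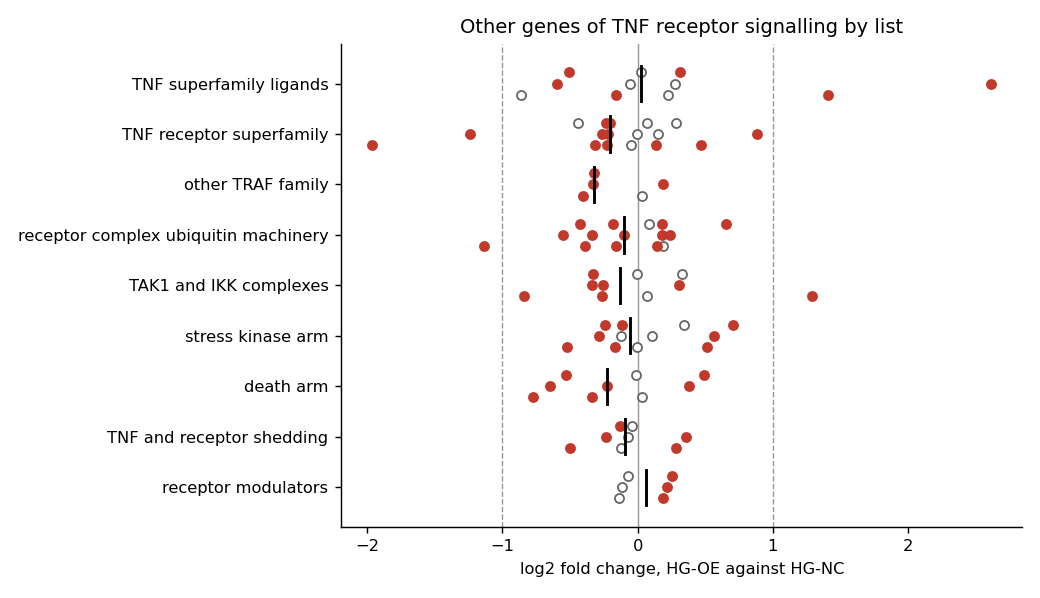
Log2 fold change (HG-OE against HG-NC) of each gene tested in the 9 lists, filled where the adjusted p is under 0.05, with the list median as a bar and dashed lines at a 2-fold change. Medians lie between −0.32 (other TRAF family) and 0.06 (receptor modulators).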

How the data were processed

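RNA-seq of HK-2 cells in 30 mM glucose for 72 h was analysed for 3 HG-NC and 3 HG-OE libraries, grouped by their labels, with the glucose condition and vector taken from the study's methods. Members and lists were chosen with earlier results of these data known. The authors trimmed the reads and used HISAT2 to align them to GRCh38. Their deposited counts are whole numbers per gene with unequal library totals, and the deposited FPKM values are scaled by gene length and library total and rounded by the authors. The strand setting of the counting and the annotation release are not given in the sources used here. The authors name ComBat_seq for batch correction, and whether it entered these counts is not stated. The libraries in mannitol were not analysed here.

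Counts (25507595 to 29444841 per library) were tested in R 4.3.3 with edgeR 4.0.16: TMM, the default low-count filter, the quasi-likelihood test and Benjamini-Hochberg adjustment over 17142 genes, with calls at an adjusted p under 0.05 and, where stated, 2-fold. The biological coefficient of variation was 0.0683. CPM were computed on TMM-scaled totals of the genes tested. Differences within a library were taken between log2 CPM (prior count 2) and given an exact permutation test. Intervals are 95%. Neighbours are other tested genes by start position in GENCODE 44. All 10 members were named, with HNRNPF, the 5 genes most like TNF, and list genes that passed with 2-fold, were the most changed in a direction or were the most counted; TRAF3, TRAF5, TRAF6, BIRC2, CYLD, TNFAIP3, LTA, LTBR and the neighbours of MAP3K5 were named after their values were seen. A list gene that this rule would name is not reported here.

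Alternatives were DESeq2 size factors, a filter keeping all genes or those with 10 counts or more per library, a replicate block, leaving out single libraries, the Wald test of DESeq2 1.42.0, limma-trend 3.58.1 on FPKM (mean at least 0.1, pseudocount 1 or 0.1, or pseudocount 1 unfiltered), and the median of neighbours within 10 Mb removed. Removing the median within 1 Mb was chosen after the data were seen. In both of these settings the median was taken as a fixed value and the SE of the gene was kept. Their adjusted p and calls therefore leave out the uncertainty of the median. The scripts were tested on simulated data.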

Additional observations from a re-analysis of the deposited data

How the results depend on the processing

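Over 16 alternatives for each of the 10 genes, 146 of 160 values kept their direction and their side of the threshold. TNF stayed called and between −1.43 and −1.11 on the log2 scale in every alternative run, TNFRSF1A between 0.38 and 0.63, MAP3K5 between −1.45 and −0.92 and TRAF1 between −0.79 and −0.41. With the 10 Mb neighbour median removed, 4 of the 10 genes were called lower in place of 3 and 2 higher in place of 4, and MAP3K7 (0.017), TNIP1 (−0.049) and TRAF7 (−0.047) changed sign. Over all genes, 7807 in that setting and 7723 with the 1 Mb median removed had an adjusted p under 0.05, in place of 8887. With the 1 Mb median removed, a choice made after the data were seen, 5 were called lower in place of 3, 1 lower by 2-fold in place of 2 and 1 higher in place of 4, and TNFRSF1B (0.024), TNIP1 (−0.24), TRAF7 (−0.11) and UBE2D3 (0.082) changed sign. The count of genes with a 2-fold call was 997 and became 1539 with no low-count filter, 617 with at least 10 counts in every library, 144 with limma on log2(FPKM + 1) and 138 with the same and no filter; the filters change which genes are tested, and the pseudocount of 1 shrinks low genes. Leaving out each library in turn gave 989 to 1124 such genes, 3 or 4 of the 10 called lower and 3 or 4 called higher, 7729 to 9355 genes with an adjusted p under 0.05, a TNF log2 fold change of −1.29 to −1.17 and a change of TNF minus TNFRSF1A of −1.88 to −1.78.

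The replicate numbers do not pair the libraries: the deviations of same-numbered libraries from their group means correlated at −0.027, 0.030 and −0.00099. With the replicate block, 990 genes had a 2-fold call, TNF was at −1.25, and no call among the 10 genes changed. A biological effect of the vector and any effect that all 3 libraries of a group share cannot be told apart. Transcript levels do not give the levels of protein, and 3 libraries per group limit the precision most for TNFRSF1B and TRAF1, the least counted of the 10.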

Other observations

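A pair of genes on the lists above did not reach the test and had their counts in 1 library. TNFRSF11B (osteoprotegerin), a soluble decoy receptor of the superfamily, had 45 counts in HG-OE 3 and 0 to 2 in each other library. TIMP3, the inhibitor of ADAM17, had 99 counts in HG-OE 3 and 0 or 1 in each other library. HG-OE 3 is also the library with the high ALB, CDH1 and CD14 counts.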
